A study of Mus musculus with 6 samples.

Results

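The genes described here encode 3 families of ion channels through which sensory neurons detect extracellular ATP, acid and touch: the P2X receptors P2rx2, P2rx3, P2rx4, P2rx5 and P2rx6, the acid-sensing channels Asic1, Asic2 and Asic3, and the mechanically gated channels Piezo1 and Piezo2. They were taken by gene symbol, and all 10 were present among the 54309 genes of the table. RNA came from dorsal root ganglia (DRG), which house the cell bodies of sensory neurons, of male C57bl/6 mice aged 8 to 10 weeks, from lumbar levels 4 to 6. The tested animals had received AAV-Leptin-GFP, an adeno-associated virus carrying leptin and GFP, and the control animals AAV-GFP, the same kind of vector with GFP only, in both sciatic nerves. In both groups the dorsal columns of the spinal cord, which hold the central branches of sensory axons, were cut 4 weeks later, and tissue was taken 24 hours after that injury. The ganglia had been dissociated with enzymes and spun through a BSA gradient, which enriches neurons without giving a pure population. The labels name neither the promoter of the vectors nor whether a library pools animals. Each group has 3 libraries, and the p-values reflect library-to-library spread, which may be technical.

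P2X receptors are trimeric cation channels opened by ATP, which damaged cells release. P2rx3 is best known from nonpeptidergic nociceptors, small pain-sensing neurons, where its product also combines with that of P2rx2. Acid-sensing ion channels are trimeric sodium channels opened by protons, and Asic3 is the member most associated with sensory neurons and with acid-evoked muscle and heart pain. Piezo proteins are large trimeric channels opened by membrane tension. Piezo2 underlies gentle touch and the sense of limb position, while Piezo1 acts mainly in blood vessels, red cells and other tissues outside the nervous system.

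No channel gene of the 3 families passed the test between AAV-Leptin-GFP and AAV-GFP. Asic3 came nearest, at 1.18 times its AAV-GFP mean, and its additional TPM lay mostly on transcripts that keep an intron and not on its protein-coding transcripts. P2rx3 stood at 0.90 times its AAV-GFP mean. The other members lay between 0.77 and 1.15 times, and the most abundant of these, Piezo2 and Asic1, lay at 0.94 and 1.01 times. TPM is a length-corrected share of each library, scaled to a sum of 1000000, so levels of different genes can be compared within a library, but the read depth behind a value is unknown.

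Genes whose TPM averaged 1 or more over the 6 libraries entered a limma test on log2(TPM + 1), and a gene was called at a Benjamini-Hochberg adjusted p under 0.05 over all 15108 tested genes. Of the 10 members 9 passed this filter, and 0 of them were called in either direction, where 1.61% of all tested genes were called. At an unadjusted limma p under 0.05, 1 of the 9 members passed (Asic3), against 19.5% of all tested genes. The groups did not overlap for 2 of the 10 members, Asic3 and P2rx3, and for 25.2% of all tested genes. The median log2 difference was -0.008 over the 10 members and -0.00016 over all tested genes.

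**Figure D1:**
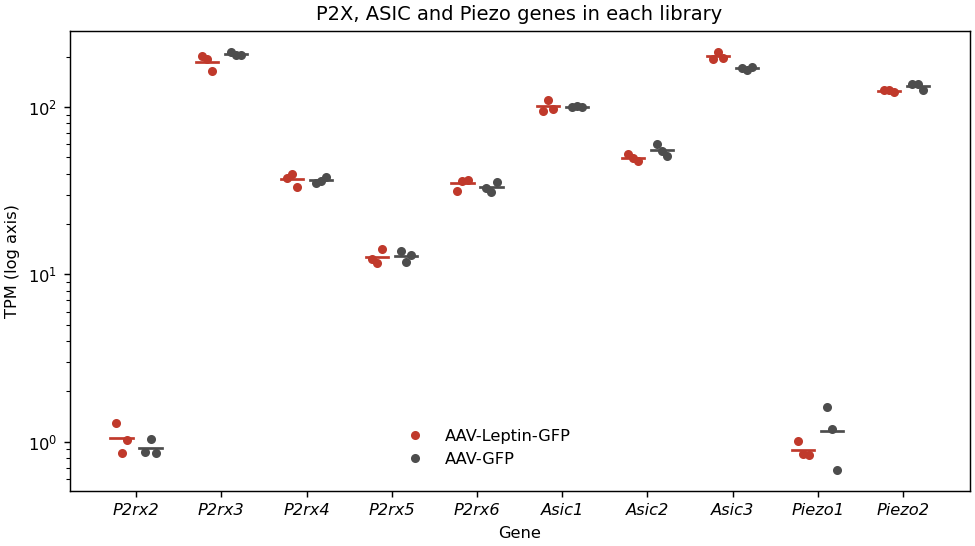
TPM of the 10 channel genes (log axis) in each library, with AAV-Leptin-GFP (red) left of AAV-GFP (grey); points are libraries and bars are group means. The ranges of the groups overlap for all genes except P2rx3, lower with AAV-Leptin-GFP, and Asic3, higher with AAV-Leptin-GFP.

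The members differed widely in level. With AAV-Leptin-GFP the order of mean TPM was Asic3 (201), P2rx3 (187), Piezo2 (125), Asic1 (101), Asic2 (49.8), P2rx4 (36.9), P2rx6 (34.9), P2rx5 (12.7), P2rx2 (1.05) and Piezo1 (0.897). With AAV-GFP it was P2rx3 (208), Asic3 (171), Piezo2 (134), Asic1 (101), Asic2 (55.3), P2rx4 (36.5), P2rx6 (33.2), P2rx5 (12.9), Piezo1 (1.16) and P2rx2 (0.920). The library ranges of P2rx4 and P2rx6 overlapped in both groups, as did those of the lowest pair, P2rx2 and Piezo1. Asic3 and P2rx3 overlapped with AAV-Leptin-GFP and were apart with AAV-GFP. All other neighbours in these orders were apart.

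P2rx3 (ENSMUSG00000027071, chromosome 2, 84998583 to 85037462 on the minus strand of GRCm38) encodes the main ATP receptor of nonpeptidergic nociceptors. It had, in replicates 1, 2 and 3, 202, 194 and 164 TPM with AAV-Leptin-GFP, against 212, 206 and 205 TPM with AAV-GFP. All 3 AAV-Leptin-GFP libraries lay under the lowest AAV-GFP library, replicate 1 by the least and replicate 3 by the most. The log2 difference was -0.16 (SE 0.076, 95% interval -0.34 to 0.02, limma adjusted p = 0.313), so the gene was not called. Its protein-coding transcript of 397 codons, P2rx3-201, carried 98.2% of P2rx3 TPM with AAV-Leptin-GFP and 99.3% with AAV-GFP. The 4 other listed transcripts stayed under 4 TPM in every library.

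P2rx2, the partner of P2rx3 in heteromeric receptors, was near the floor of the data. It had 1.29, 0.852 and 1.02 TPM in the AAV-Leptin-GFP libraries, against 0.864, 1.04 and 0.859 TPM in the AAV-GFP libraries. These values overlapped, and the mean of 0.987 TPM over all libraries left the gene under the filter. The signal moved between P2rx2-203, P2rx2-201 and P2rx2-206 from library to library, each of them listed at 0 in at least 2 libraries. With no filter on low values the log2 difference was 0.09 (95% interval -0.22 to 0.41, limma adjusted p = 0.781).

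P2rx4, which neurons share with macrophages and microglia, had 37.9, 39.8 and 33.1 TPM in the AAV-Leptin-GFP libraries, against 35.3, 36.1 and 38.1 TPM in the AAV-GFP libraries. The AAV-Leptin-GFP values enclosed those of AAV-GFP, and the log2 difference was 0.01 (95% interval -0.17 to 0.19). Its most abundant transcript was P2rx4-202, of 361 codons, with 56.4% ± 2.60 of P2rx4 TPM with AAV-Leptin-GFP and 59.8% ± 1.36 with AAV-GFP (SD, n = 3 each). The longest coding form, P2rx4-201 of 388 codons, averaged 5.23 and 6.52 TPM in AAV-Leptin-GFP and AAV-GFP. Summed macrophage markers were low in every library, at 50.1 to 50.4 TPM over 13 genes with AAV-Leptin-GFP and 44.2 to 68.0 TPM with AAV-GFP, and none of the 13 was at 0 throughout. Their part in the P2rx4 level was not tested.

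P2rx6, a subunit that forms functional channels mainly with other P2X subunits, averaged 34.9 ± 2.80 TPM with AAV-Leptin-GFP and 33.2 ± 2.42 TPM with AAV-GFP (SD, n = 3 each). Its log2 difference was 0.07 (95% interval -0.12 to 0.26). P2rx5 averaged 12.7 ± 1.27 and 12.9 ± 0.996 TPM in AAV-Leptin-GFP and AAV-GFP, with a log2 difference of -0.02 (95% interval -0.25 to 0.20). Both genes overlapped between the groups. P2rx5 was carried by 1 transcript, P2rx5-201 of 455 codons, at 99.6% of its TPM with AAV-Leptin-GFP and 100% with AAV-GFP.

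Summed over the 5 P2X members, the libraries held 285, 283 and 249 TPM with AAV-Leptin-GFP, against 295, 286 and 292 TPM with AAV-GFP. These sums did not overlap, but AAV-Leptin-GFP replicate 1 and AAV-GFP replicate 2 differed by little (exact two-sided permutation p = 0.1, the smallest that 3 against 3 libraries allow). Tests of family sums were not part of the design. The P2X genes P2rx1 and P2rx7 are not members and were outside the P2X sum. P2rx7 was higher with AAV-Leptin-GFP, at 6.44 to 6.88 TPM against 4.17 to 5.29 TPM with AAV-GFP. The separation of the sums therefore depends on which P2X genes are included. The share of P2rx3 in the sum was 70.8%, 68.6% and 65.9% with AAV-Leptin-GFP, against 71.9%, 72.0% and 70.0% with AAV-GFP (exact permutation p = 0.2). The shares overlapped between the groups, and P2rx3 was the most abundant P2X gene in every library.

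Asic3 (ENSMUSG00000038276, chromosome 5, 24413392 to 24417835 on the plus strand) had, in replicates 1, 2 and 3, 195, 213 and 196 TPM with AAV-Leptin-GFP, against 172, 166 and 174 TPM with AAV-GFP. Every AAV-Leptin-GFP library was above every AAV-GFP library, with a gap between the groups wider than the spread within AAV-GFP. The log2 difference was 0.24 (SE 0.048, 95% interval 0.12 to 0.35, unadjusted p = 0.00159, limma adjusted p = 0.063), which missed the threshold. It passed under 2 of the 14 alternative settings, quantile normalization (0.28, limma adjusted p = 0.0370) and removal of mitochondrially encoded genes (0.27, limma adjusted p = 0.0358). Both settings also called more genes over all tested genes, 268 and 338 against 243 in the main fit.

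The 5 listed Asic3 transcripts fell into 3 classes. The protein-coding Asic3-202 (530 codons) averaged 76.5 ± 4.04 TPM with AAV-Leptin-GFP and 80.7 ± 4.24 TPM with AAV-GFP, and the protein-coding Asic3-201 (440 codons) 66.3 ± 5.72 and 67.2 ± 8.00 TPM (SD, n = 3 each). Both overlapped between the groups. Asic3-204, annotated as a retained-intron transcript, had 43.8, 50.8 and 34.4 TPM in the AAV-Leptin-GFP libraries, against 27.4, 6.83 and 8.94 TPM in the AAV-GFP libraries. Here the groups did not overlap, AAV-GFP replicate 1 stood well above the other AAV-GFP libraries, and the log2 difference was 1.74 (95% interval 0.59 to 2.89, limma adjusted p = 0.121 over 33615 tested transcripts). Asic3-203, a shorter retained-intron transcript, had 8.51, 8.48 and 11.3 TPM with AAV-Leptin-GFP, against 4.40, 5.22 and 4.25 TPM with AAV-GFP (log2 difference 0.88, limma adjusted p = 0.0638). Without AAV-GFP replicate 1, Asic3-204 passed (log2 difference 2.30, limma adjusted p = 0.0178). Without AAV-GFP replicate 2 its log2 difference was 1.37 (limma adjusted p = 0.282), and with any library other than AAV-GFP replicate 1 left out it did not pass.

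The introns that set these transcripts apart are shown because the additional Asic3 TPM was mostly assigned to the transcripts that keep them. Reads over the introns themselves were not examined. Each line gives the intron from its 5′ to its 3′ end in the GENCODE M21 transcript sequence, with the splice donor GT and acceptor AG in capitals. Asic3-204 keeps intron 2 of the protein-coding transcripts (chr5:24415541-24415809, plus strand, GRCm38, 269 bases). Asic3-203 begins inside that intron, at base 24415740, and keeps a later one, the last intron of Asic3-201 (chr5:24417554-24417667, plus strand, GRCm38, 114 bases).
Asic3-204 intron: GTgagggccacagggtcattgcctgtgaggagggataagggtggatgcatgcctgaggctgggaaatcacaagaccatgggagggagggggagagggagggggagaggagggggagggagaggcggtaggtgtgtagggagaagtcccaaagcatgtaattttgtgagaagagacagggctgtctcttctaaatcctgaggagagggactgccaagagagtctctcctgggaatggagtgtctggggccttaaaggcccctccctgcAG
Asic3-203 intron: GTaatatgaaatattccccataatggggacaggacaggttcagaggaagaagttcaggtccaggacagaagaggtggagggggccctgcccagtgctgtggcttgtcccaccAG

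**Figure D2:**
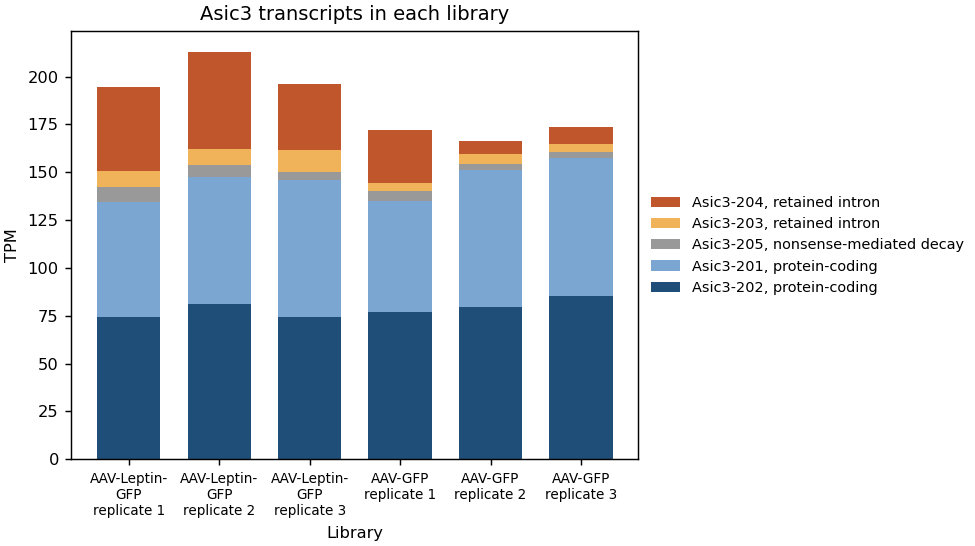
TPM of the 5 Asic3 transcripts stacked for each library, AAV-Leptin-GFP left of AAV-GFP. The protein-coding parts (blue) reach 135 to 148 TPM with AAV-Leptin-GFP and 135 to 158 TPM with AAV-GFP, while the retained-intron parts (orange) reach 45.7 to 59.3 TPM with AAV-Leptin-GFP and 12.05 to 31.8 TPM with AAV-GFP.

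Split by class, protein-coding Asic3 transcripts averaged 143 TPM with AAV-Leptin-GFP and 148 TPM with AAV-GFP, a difference of -5.19 TPM. Retained-intron Asic3 transcripts averaged 52.4 and 19.0 TPM in AAV-Leptin-GFP and AAV-GFP, a difference of 33.4 TPM. The remaining transcript, Asic3-205, a target of nonsense-mediated decay, averaged 6.05 and 3.70 TPM with overlapping ranges, a difference of 2.35 TPM, and the whole gene differed by 30.6 TPM. Tested on protein-coding transcripts only, Asic3 had a log2 difference of -0.05 (95% interval -0.20 to 0.10, limma adjusted p = 0.730). Retained-intron transcripts made up 26.9%, 27.8% and 23.3% of Asic3 TPM with AAV-Leptin-GFP, against 18.5%, 7.24% and 7.59% with AAV-GFP (exact permutation p = 0.1, the smallest possible). This measure was chosen after the transcript values were seen.

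The same direction was common in these libraries. Retained-intron transcripts of all genes took 3.60%, 3.75% and 3.24% of TPM with AAV-Leptin-GFP, against 2.50%, 2.10% and 2.27% with AAV-GFP, and AAV-GFP replicate 1 led its group here as in Asic3-204. Among 3197 tested genes averaging 1 TPM or more on retained-intron and also on protein-coding transcripts, the median difference in retained-intron share was 4.10 percentage points. The averages were taken over both groups, so genes high in 1 group only could enter. Of these genes 56.4% had shares that did not overlap and were higher with AAV-Leptin-GFP. Asic3, at 14.9 percentage points, exceeded 89.43% of them. Whether the library-wide difference accounts for that of Asic3 was not tested.

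**Figure D3:**
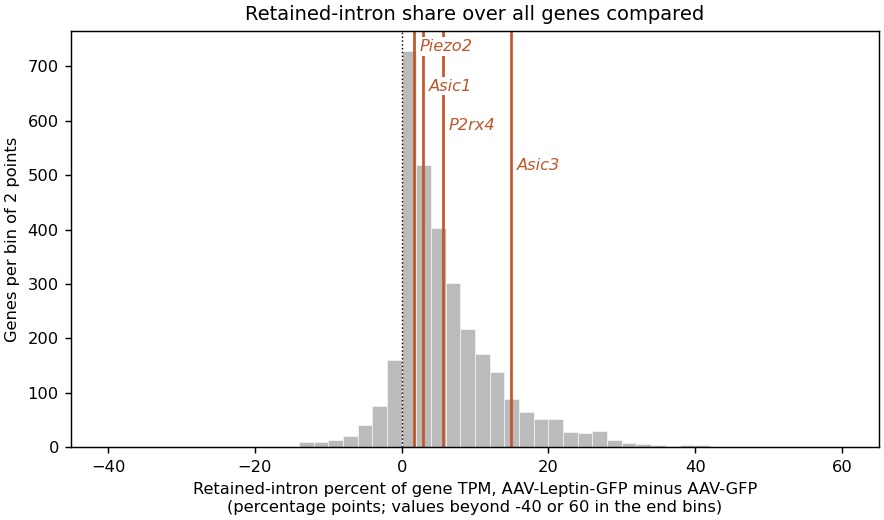
Difference in the retained-intron share of a gene's TPM, AAV-Leptin-GFP minus AAV-GFP in percentage points, for 3197 genes (grey histogram) and for the 4 channel genes among them (orange lines). Asic3 lies at 14.9, P2rx4 at 5.61, Asic1 at 2.96 and Piezo2 at 1.64, against a median of 4.10 over all genes compared.

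Of the other channel genes, P2rx4 had 7.51%, 8.98% and 7.26% of its TPM on retained-intron transcripts with AAV-Leptin-GFP, against 3.36%, 0.11% and 3.44% with AAV-GFP. Asic1 had 4.31%, 4.69% and 3.55% with AAV-Leptin-GFP, against 2.83%, 0% and 0.827% with AAV-GFP. Both pairs of groups were apart (exact permutation p = 0.1 each, the smallest possible), and the P2rx4 and Asic1 differences exceeded those of 60.09% and 42.45% of the genes compared. Retained-intron P2rx4 transcripts averaged 2.94 TPM with AAV-Leptin-GFP and 0.846 TPM with AAV-GFP, so P2rx4 entered the genes compared only through AAV-Leptin-GFP. Piezo2 had 7.97%, 7.08% and 5.99% with AAV-Leptin-GFP, against 5.67%, 4.06% and 6.39% with AAV-GFP, and there the groups overlapped. Over all members, 26 of 63 listed transcripts reached a mean of 1 TPM, and 0 of these 26 were called, where 0.131% of all tested transcripts were called. At an unadjusted limma p under 0.05 there were 4, Asic3-204, Asic3-203, Asic1-206 and Asic1-203, against 18.3% of all tested transcripts. All 6 tested retained-intron transcripts of the members lay above 0, as did 84.1% of all tested retained-intron transcripts. Asic1-206, Asic1-202 and Piezo2-212 averaged 0.638, 0.585 and 0.733 TPM with AAV-GFP, so they passed the filter only through AAV-Leptin-GFP. For such transcripts the filter itself favours a difference above 0, so the count of 6 is not independent support. Of 16 tested protein-coding transcripts of the members 6 lay above 0, and of all tested protein-coding transcripts 43.3%. Piezo2-210 was among these 6 and also passed the filter only through AAV-Leptin-GFP (0.708 TPM with AAV-GFP).

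Asic1 (ENSMUSG00000023017, chromosome 15, 99670368 to 99701130 on the plus strand) had, in replicates 1, 2 and 3, 95.2, 111 and 97.6 TPM with AAV-Leptin-GFP, against 100.4, 102 and 99.6 TPM with AAV-GFP. The AAV-Leptin-GFP libraries enclosed the AAV-GFP ones, and the log2 difference was 0.01 (95% interval -0.14 to 0.15, limma adjusted p = 0.979). Its coding transcripts start at different first exons. Asic1-201 has 526 codons, the length of rodent ASIC1a, the form widespread in brain and sensory neurons. Asic1-205 has 559 codons, the length of rodent ASIC1b, the form found mainly in sensory neurons.

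The ASIC1b-length transcript was the more abundant, at 43.5 ± 4.36 TPM with AAV-Leptin-GFP and 41.6 ± 2.44 TPM with AAV-GFP, and the ASIC1a-length transcript averaged 21.2 ± 2.83 and 20.2 ± 1.07 TPM (SD, n = 3 each). As a share of both, the ASIC1b-length transcript held 67.5%, 66.3% and 67.9% with AAV-Leptin-GFP, against 66.1%, 67.2% and 68.4% with AAV-GFP. The balance between these transcripts thus overlapped between the groups. Another abundant transcript, Asic1-203, annotated as non-coding, had 32.7, 33.0 and 31.0 TPM with AAV-Leptin-GFP, against 38.6, 36.4 and 37.6 TPM with AAV-GFP. Its groups did not overlap, and it was not called (log2 difference -0.21, SE 0.0555, limma adjusted p = 0.107). Asic1-206, a retained-intron transcript, averaged 2.83 ± 0.774 and 0.638 ± 0.626 TPM in AAV-Leptin-GFP and AAV-GFP (log2 difference 1.28, limma adjusted p = 0.128).

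Asic2 (ENSMUSG00000020704, chromosome 11, 80880169 to 81968457 on the minus strand) encodes subunits that tune the acid sensitivity of mixed channels. It was measured at 52.4, 49.7 and 47.5 TPM in the AAV-Leptin-GFP libraries, against 60.1, 54.7 and 51.0 TPM in the AAV-GFP libraries. AAV-Leptin-GFP replicate 1 lay above AAV-GFP replicate 3, so the groups overlapped, and the log2 difference was -0.14 (SE 0.073, 95% interval -0.31 to 0.03, limma adjusted p = 0.327). Without AAV-GFP replicate 1, the library with the most Asic2, it was -0.08. Both Asic2 transcripts are protein-coding and begin at far-apart first exons. Asic2-201 has 563 codons, the length of rodent ASIC2b, which carries no proton-evoked current on its own, and Asic2-202 has 512 codons, the length of rodent ASIC2a.

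The ASIC2b-length transcript dominated, at 44.6 ± 3.01 TPM with AAV-Leptin-GFP and 48.5 ± 3.85 TPM with AAV-GFP. The ASIC2a-length transcript had 4.73, 5.23 and 5.85 TPM with AAV-Leptin-GFP, against 7.43, 6.84 and 5.99 TPM with AAV-GFP. These did not overlap, though AAV-Leptin-GFP replicate 3 and AAV-GFP replicate 3 differed by little (log2 difference -0.31, SE 0.1325, limma adjusted p = 0.293). Its share of Asic2 TPM was 10.6% ± 1.64 with AAV-Leptin-GFP and 12.2% ± 0.406 with AAV-GFP (SD, n = 3 each, exact permutation p = 0.2).

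The coding starts that tell these Asic1 and Asic2 forms apart are shown because the forms of each gene differed from each other in level in every library. Each line gives the first 60 coding bases, 5′ to 3′, from GENCODE M21 on GRCm38, with the start codon in capitals. They lie at chr15:99671800-99671859 (Asic1-201) and chr15:99692371-99692430 (Asic1-205) on the plus strand, and at chr11:81152406-81152465 (Asic2-201) and chr11:81968125-81968184 (Asic2-202) on the minus strand.
Asic1-201 start: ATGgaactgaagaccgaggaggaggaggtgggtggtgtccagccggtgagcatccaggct
Asic1-205 start: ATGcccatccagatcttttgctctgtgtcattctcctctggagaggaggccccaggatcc
Asic2-201 start: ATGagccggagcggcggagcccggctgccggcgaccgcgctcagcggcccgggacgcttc
Asic2-202 start: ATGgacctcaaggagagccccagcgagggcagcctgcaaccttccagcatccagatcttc

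Summed over the ASIC members, the libraries held 342, 373 and 341 TPM with AAV-Leptin-GFP, against 333, 323 and 324 TPM with AAV-GFP. These sums did not overlap and, unlike the P2X sums, were higher with AAV-Leptin-GFP (exact permutation p = 0.1). Asic3 made up 56.9%, 57.1% and 57.5% of the summed ASIC TPM with AAV-Leptin-GFP, against 51.7%, 51.6% and 53.6% with AAV-GFP (exact permutation p = 0.1, the smallest possible). On protein-coding transcripts only this difference, 4.86 percentage points over all transcripts, was -0.282. The ratio of Asic3 to P2rx3 TPM was 0.963, 1.10 and 1.19 in the AAV-Leptin-GFP libraries, against 0.810, 0.809 and 0.849 in the AAV-GFP libraries, a log2 difference of 0.39 (exact permutation p = 0.1). On protein-coding transcripts only it was 0.12 and the groups overlapped. With protein-coding transcripts only, P2rx3 was the most abundant member in both groups, at 184 TPM with AAV-Leptin-GFP and 207 TPM with AAV-GFP. The change of rank between Asic3 and P2rx3 therefore appears with retained-intron transcripts included and not without them.

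**Figure D4:**
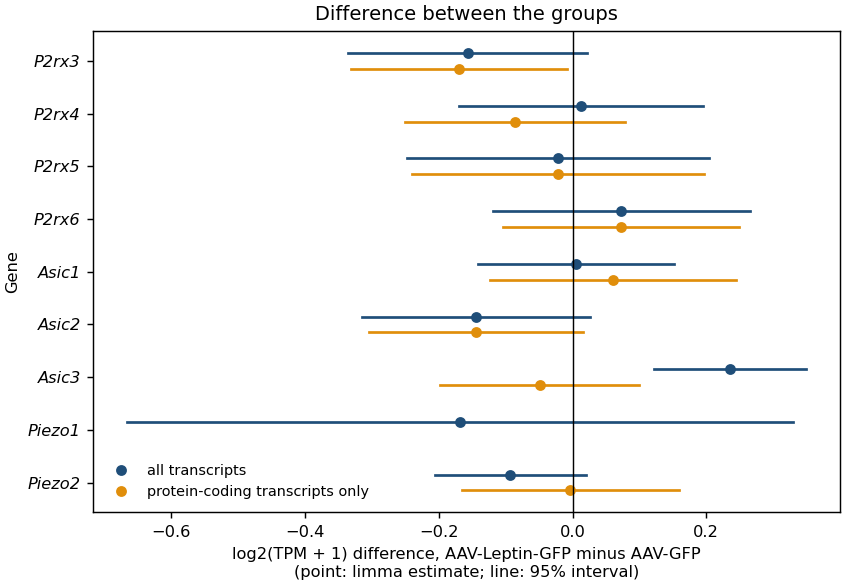
Difference in log2(TPM + 1), AAV-Leptin-GFP minus AAV-GFP, for the 9 tested channel genes over all transcripts (blue) and, where tested, over protein-coding transcripts only (orange); points are limma estimates and lines 95% intervals. Asic3 lies at 0.24 over all transcripts and at -0.05 over protein-coding transcripts, while P2rx3 lies at -0.16 and -0.17.

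Piezo2, the touch channel, had, in replicates 1, 2 and 3, 126, 127 and 123 TPM with AAV-Leptin-GFP, against 138, 137 and 126 TPM with AAV-GFP. AAV-GFP replicate 3 lay among the AAV-Leptin-GFP libraries, and the other AAV-GFP libraries lay above them. The log2 difference was -0.09 (SE 0.048, 95% interval -0.21 to 0.02, limma adjusted p = 0.344). The main full-length transcript, Piezo2-202 with 54 exons and 2824 codons, averaged 54.4 ± 1.56 TPM with AAV-Leptin-GFP and 56.1 ± 4.66 TPM with AAV-GFP. A second long coding transcript, Piezo2-214 of 2778 codons, averaged 22.4 ± 2.99 and 21.6 ± 1.91 TPM (SD, n = 3 each). Both overlapped between the groups.

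Much of the Piezo2 signal lay on a short transcript, Piezo2-205, with 13 exons from the 3′ part of the gene and the annotation of a nonsense-mediated decay target. It had 42.1, 38.1 and 32.0 TPM in the AAV-Leptin-GFP libraries, against 58.8, 48.6 and 35.7 TPM in the AAV-GFP libraries. The groups overlapped (log2 difference -0.32, SE 0.192, limma adjusted p = 0.449). It differed more among libraries of 1 group than Piezo2-202 did. On protein-coding transcripts only, the log2 difference of Piezo2 was -0.0034 (limma adjusted p = 0.987).

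Piezo1 was close to the floor, with 1.02, 0.847 and 0.828 TPM in the AAV-Leptin-GFP libraries, against 1.62, 1.196 and 0.679 TPM in the AAV-GFP libraries. The AAV-GFP values enclosed the others, and the log2 difference was -0.17 (SE 0.212, 95% interval -0.67 to 0.33, limma adjusted p = 0.716). Leaving out a control library moved the Piezo1 difference, to -0.02 for AAV-GFP replicate 1 and to -0.34 for replicate 3, and quantile normalization gave -0.35. Its 3′ end overlaps Ctu2 on the opposite strand. No source used here says whether the authors' quantification used strand, so reads there cannot be assigned with certainty. Endothelial markers, genes of a cell type known for Piezo1, summed to 74.5 to 88.0 TPM over 10 genes with AAV-Leptin-GFP and 89.2 to 94.6 TPM with AAV-GFP. Egfl7 alone held 53.8 to 60.6 TPM with AAV-Leptin-GFP and 63.4 to 67.3 TPM with AAV-GFP, and the 9 other genes overlapped, at 20.7 to 33.7 and 22.6 to 31.2 TPM. None was at 0 in all libraries, and their part in the Piezo1 level was not tested. Piezo2 made up 99.2% to 99.3% of the Piezo sum with AAV-Leptin-GFP and 98.8% to 99.5% with AAV-GFP (exact permutation p = 0.6).

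Of 52 genes listed as relatives and partners of these channels 33 were tested and 0 were called with limma, where 1.61% of all tested genes were called. At an unadjusted limma p under 0.05, 4 of the 33 were on the higher side with AAV-Leptin-GFP and 3 on the lower, against 19.5% of all tested genes in either direction. The missing channel relatives were scarce: P2rx1, Asic4 and the Piezo modulator Stoml3 stayed under 1 TPM in all libraries, and Asic5 was listed at 0. P2rx7, an ATP-gated channel known from glia and immune cells, had 6.88, 6.44 and 6.74 TPM with AAV-Leptin-GFP, against 5.29, 4.93 and 4.17 TPM with AAV-GFP (log2 difference 0.41, SE 0.108, limma adjusted p = 0.103). The groups did not overlap, and the adjusted p ranged from 0.0826 to 0.253 over the 14 alternatives and the fit as designed.

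Among 5 tested P2X and P2Y receptor genes none was called, with 3 above 0 and 2 below. The metabotropic ATP receptor P2ry2 stood at 17.2 ± 0.284 and 14.9 ± 0.359 TPM in AAV-Leptin-GFP and AAV-GFP (0.19, adjusted p = 0.157), and the ADP receptor P2ry1 at 38.0 ± 3.59 and 43.5 ± 5.10 TPM (-0.19, adjusted p = 0.355). Among 11 tested genes of ATP release and breakdown none was called, and 8 lay below 0. Nt5e, which turns AMP into adenosine, stood at 19.6 ± 0.674 and 24.2 ± 2.13 TPM (-0.29, limma adjusted p = 0.112), the AMP phosphatase Acpp of nociceptors at 138 ± 12.2 and 159.9 ± 17.2 TPM (-0.21, adjusted p = 0.279), and the ATP release channel Panx1 at 88.2 ± 1.28 and 96.8 ± 1.97 TPM (-0.13, adjusted p = 0.147).

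Among 5 tested ASIC relatives and partners none was called. Pick1, a scaffold protein that binds ASIC1 and ASIC2, stood at 35.5 ± 1.44 TPM with AAV-Leptin-GFP and 30.7 ± 2.11 TPM with AAV-GFP (0.20, limma adjusted p = 0.171), but at -0.01 on protein-coding transcripts only. The stomatin relatives Stoml2 and Stoml1 stood at -0.19 (adjusted p = 0.173) and -0.05 (adjusted p = 0.626). Among 12 tested Piezo partners and other mechanosensitive channel genes none was called. Tmem63b, a mechanically gated cation channel, stood at 188 ± 7.95 and 167 ± 11.0 TPM (0.17, adjusted p = 0.182), Tmem120a at 0.11 (adjusted p = 0.386) and Tmem87a at -0.10 (adjusted p = 0.480).

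Markers of the neuron classes that carry these channels were detected in every library. In bulk samples, fewer cells of a type and less RNA per cell cannot be told apart. Pan-sensory-neuron markers, 12 genes, summed to 13668 to 13977 TPM with AAV-Leptin-GFP and 14596 to 14733 TPM with AAV-GFP. Nonpeptidergic nociceptor markers, the class of P2rx3, summed to 1221 to 1341 TPM over 13 genes with AAV-Leptin-GFP and 1288 to 1484 TPM with AAV-GFP. Their median log2 difference was -0.18 and 0 of 13 were called, where 1.61% of all tested genes were called. At an unadjusted limma p under 0.05, 3 of 13 were lower, against 19.5% of all tested genes in either direction. Genes listed as large-diameter neuron markers, a class that carries Piezo2 but not the only one, summed to 3140 to 3492 TPM over 14 genes with AAV-Leptin-GFP and 3015 to 3401 TPM with AAV-GFP. Peptidergic nociceptor markers summed to 3834 to 4667 TPM over 10 genes with AAV-Leptin-GFP and 5201 to 5580 TPM with AAV-GFP. Their median log2 difference was -0.29 and 0 of 10 were called. At an unadjusted limma p under 0.05, 8 of 10 were lower, against the same 19.5% of all tested genes. Most of the peptidergic sum was Calca, the gene of the neuropeptide CGRP, at 3235 ± 328 TPM with AAV-Leptin-GFP and 4141 ± 128 TPM with AAV-GFP (SD, n = 3 each). The 9 other peptidergic markers summed to 955 to 1142 TPM with AAV-Leptin-GFP and 1191 to 1432 TPM with AAV-GFP.

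Non-neuronal markers were also present. Satellite glia markers (11 genes) summed to 7568 to 8318 TPM with AAV-Leptin-GFP and 8410 to 9582 TPM with AAV-GFP, most of it Apoe, without which the sums overlapped. Schwann cell markers (10 genes) summed to 1356 to 1496 TPM with AAV-Leptin-GFP and 1555 to 1615 TPM with AAV-GFP. Fibroblast markers (8 genes) summed to 65.5 to 93.6 TPM with AAV-Leptin-GFP and 64.3 to 78.8 TPM with AAV-GFP, and mural cell markers (8 genes) to 56.6 to 75.1 TPM and 65.7 to 91.5 TPM. No marker of these lists was at 0 in all libraries. Of the 110 genes in all marker lists, not all of them tested, 1 was called, Egr2, where 1.61% of all tested genes were called. This Schwann cell marker, which is also an immediate early gene, was higher with AAV-Leptin-GFP, while the sum of its list was lower. The part of any of these cell types in the channel values was not tested.

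Lep, the delivered gene, had, in replicates 1, 2 and 3, 0.751, 0.547 and 3.56 TPM with AAV-Leptin-GFP and was listed at 0 in the AAV-GFP libraries. These values are near the floor of the data, and the mean over the 6 libraries was under 1 TPM, so Lep was not tested. Mitochondrially encoded genes took 7.35% to 9.15% of TPM with AAV-Leptin-GFP and 5.66% to 6.13% with AAV-GFP. AAV-Leptin-GFP replicate 3, the library with the most Lep and the largest mitochondrial share, was also the one with the least P2rx3. Without it the log2 difference of P2rx3 was -0.07. This is 1 library, and a link of P2rx3 with Lep or with the mitochondrial share was not tested.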

How the data were processed

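RNA-seq libraries were made with a stranded mRNA kit, per the labels' protocols, and the authors deposited 1 table of TPM (a length-corrected share of each library) for 140789 transcripts. The submitters' processing notes name FastQC 0.11.9, Trim Galore 0.6.6, Salmon 1.6.0, DESeq2 1.34.0 and the builds GRCm38 and mm10, with no role or order. TPM keeps no read depth, so depth is unknown and no counting interval is given. Transcripts above 0 TPM numbered 61474 to 64423 with AAV-Leptin-GFP and 55476 to 60572 with AAV-GFP, where replicate 1 had the most. Genes at 1 TPM or more numbered 15151 to 15285 with AAV-Leptin-GFP and 14717 to 14851 with AAV-GFP. Whether this difference in detection bears on the retained-intron shares was not tested. No source used here says whether quantification used strand. P2rx3, P2rx6, Piezo1, Piezo2 and Asic2 overlap a gene on the opposite strand, so their reads there are uncertain. Reads shared by isoforms are divided by estimation, which makes isoform values less certain than gene sums.

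TPM was summed by gene identifier. Genes averaging 1 TPM or more over the 6 libraries entered limma 3.58.1 (trend, R 4.3.3) as log2(TPM + 1), with both groups in the fit, with Benjamini-Hochberg adjustment over all tested genes and a threshold of 0.05. Fold changes on this scale understate those of low genes. Transcripts were tested in the same way. Single values such as shares were compared by exact two-sided permutation tests, whose smallest p with 3 against 3 libraries is 0.1. The procedure was checked on simulated data. Tables and figures were made with Python 3.11.15, pandas 2.3.3 and matplotlib 3.10.9. No source used here names the annotation release behind the table. Of its transcript identifiers 97.4% are in GENCODE M21, which supplied classes, locations and sequences on GRCm38, but only 37 carry the same version suffix, so the classes come from a release other than the authors'.

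The members and the gene lists were chosen with earlier results of these data known. The text names all 10 members, of each partner list the 3 genes with the smallest unadjusted p, Lep, the summed markers of each list, and member transcripts averaging 1 TPM or more. P2rx1, Asic4, Asic5, Stoml3, Egr2, Calca, Egfl7, Apoe and member transcripts under that level were named outside this rule, after their values were seen, as were the marker sums without the most abundant gene. Alternatives covered the pseudocount, the filter, quantile normalization, the limma trend, a replicate block, each library left out, mitochondrially encoded genes removed, and protein-coding transcripts only.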

Additional observations from a re-analysis of the deposited data

How the results depend on the processing

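The values with 3 libraries a group are limited by the spread between libraries and by unknown depth. Over all tested genes, 243 were called as designed, 4 with no filter on low values, 152 with a filter at a mean of 0.1 TPM, 35 without the trend, 57 on protein-coding transcripts only, and 4 to 420 with 1 library left out (the extremes came from omitting AAV-GFP replicates 2 and 1). With the replicate block 74 were called. The replicate numbers gave no sign of pairing. Same-numbered libraries had correlations of deviations of 0.0341, -0.0699 and -0.0241, and not every library correlated best with its own number. With 3 libraries a group these correlations depend on each other, so they cannot exclude that libraries were handled in pairs. Members called were 0 as designed and 1 (Asic3) under quantile normalization and under removal of mitochondrially encoded genes. Over all tested genes these settings called 268 and 338, and a pseudocount of 0.1 called 262. Member transcripts called were 0 as designed and 0 to 1 with 1 library left out (Asic3-204 without AAV-GFP replicate 1). The median log2 difference of the members was -0.008, against -0.067 under quantile normalization, 0.025 with mitochondrially encoded genes removed, and -0.051 to -0.003 with 1 library left out, lowest without AAV-Leptin-GFP replicate 2. Directions of small differences turned. P2rx4 was at -0.01 under quantile normalization, -0.09 on protein-coding transcripts, and at -0.04 to 0.09 with 1 library left out (-0.01 without AAV-GFP replicate 1; among AAV-Leptin-GFP libraries, -0.0067 without replicate 1 and -0.04 without replicate 2). P2rx5 was at 0.01 with mitochondrially encoded genes removed and at 0.03 when either AAV-GFP replicate 1 or, from the other group, replicate 2 was left out. Asic1 was at -0.0017 without AAV-GFP replicate 3 and ranged from -0.06 without AAV-Leptin-GFP replicate 2 to 0.05 with another library left out. On protein-coding transcripts only, Asic3 was at -0.05, Panx1 at 0.04, Pick1 at -0.01, and the Asic3 share of the ASIC sum differed by -0.282 percentage points. The Piezo2 share differed by 0.142 percentage points as designed and by -0.00998 (AAV-GFP replicate 1) to 0.301 with 1 library left out. P2rx6 ranged from 0.02 to 0.14 with 1 library left out. The cause of these moves was not tested. The retained-intron share of Asic3 and Asic1 and the Asic3 to P2rx3 ratio, with their alternatives, were chosen after seeing the data. They kept their direction with each library left out. Asic3 reached 18.6 percentage points without AAV-GFP replicate 1, Asic1 ranged from 2.35 to 3.77, and the log2 ratio from 0.323 to 0.478. The retained-intron shares of P2rx4 and Piezo2 were also chosen after seeing the data, and were not recomputed with libraries left out.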
